A study of Mus musculus with 6 samples.

Results

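The macrophage lineage transcription factors described here are 9 genes chosen by name, Spi1, Irf8, Irf5, Cebpa, Cebpb, Maf, Runx1, Mitf and Tfec, out of 14574 genes listed in any of 6 RNA sequencing libraries. All 9 were listed in every library, and all 9 passed the filter of a mean of at least 1 FPKM, which left 10172 genes for testing. FPKM corrects fragment numbers for the length of the transcript and the depth of the library, so levels of different genes can be compared on it. The libraries came from bone marrow-derived macrophages of Cd28 KO mice (3 libraries) and of C57BL/6J mice, the wild type (WT, 3 libraries). Cd28 is a receptor best known from T cells, and the labels name neither the allele, a tissue restriction nor the strain background of the knockout. All mice were 6 to 10 weeks old. Femur marrow of both genotypes was cultured for 7 days with 10% serum and 2-mercaptoethanol. The growth factor, human M-CSF at 25 ng/ml, was renewed at intervals of 2 days, and there was no further treatment. The titles number the libraries 1 to 3 in each genotype. No label says whether a number stands for 1 animal, and p-values measure the spread between these libraries, which may be technical.

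Blood stem cells become macrophages through a small set of transcription factors that bind together at the enhancers of macrophage genes. PU.1, the product of Spi1, opens these enhancers, and its dose against that of C/EBP alpha is known to bias precursors between macrophages and granulocytes. RUNX1 acts upstream of PU.1, C/EBP and IRF proteins bind next to it, MAF proteins restrain self-renewal, and MITF and its relatives drive osteoclast and lysosome genes. M-CSF, the growth factor of this culture, maintains the program through its receptor Csf1r, itself a target of PU.1.

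The libraries carried the signature of macrophages. The 10 macrophage markers had a summed level between 14874 and 16967 FPKM in Cd28 KO and between 14179 and 14869 in WT. The sum of 10 neutrophil markers was 7.39 to 12.5 FPKM in Cd28 KO, against 5.76 to 10.98 in WT, that of 8 dendritic cell markers 3.97 to 5.95 against 3.13 to 5.90, and that of 8 T cell markers, mostly Cd4, 4.66 to 6.98 against 5.24 to 7.20. Markers of B cells, erythroid cells and fibroblasts did not exceed 1.41 FPKM in sum, while 6 mast cell and basophil markers summed to 1.68 to 2.17 FPKM in Cd28 KO against 3.04 to 4.10 in WT, nearly all of it Kit, with the other 5 at or near 0. Cd3d, Trac, Ebf1, Tpsb2 and Lum were listed in no library. Calcr and Oscar, both osteoclast markers, were also listed in none. The 8 osteoclast markers still summed to 95.5 to 117.6 FPKM in Cd28 KO against 116.2 to 158.5 in WT. Of 20 transcription factors of other blood lineages, 17 had a mean below 1 FPKM, among them Gata1 of the erythroid line, Pax5 of B cells and Gfi1 of granulocytes. Cd28 itself stood at 25.7, 24.2 and 26.9 FPKM in Cd28 KO against 38.2, 30.1 and 51.1 in WT, so the knockout libraries still listed it. Both replicate 3 libraries differed from the other 4. They alone listed Y-linked genes, such as Eif2s3y (39.1 FPKM in Cd28 KO, 31.8 in WT), and they listed 13227 and 13327 genes, against 12768 to 12867 in the others. Results below are therefore given by genotype and by replicate number.

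The start regions of 4 of these genes are shown, and they entered no test. Cebpb and Cebpa were high in replicate 3, Tfec was low there without passing the test, and Irf5 had no overlap between genotypes. Each line holds the 250 bases before an annotated start site, 5′ to 3′, from RefSeq on build GRCm38.p6, and 7 of the 9 genes had an entry. Capitals mark matches, on either strand, to any of 7 short motifs: AGGAAGT for PU.1, TTGCNNAA for C/EBP, GAAA spaced by 2 bases from a further GAAA for IRF, TGCTGAC for MAF, TGTGGT for RUNX, CACGTG for MITF and TGACG for the cyclic AMP response element (CRE).
Cebpb, chr2:167688665-167688914, plus strand: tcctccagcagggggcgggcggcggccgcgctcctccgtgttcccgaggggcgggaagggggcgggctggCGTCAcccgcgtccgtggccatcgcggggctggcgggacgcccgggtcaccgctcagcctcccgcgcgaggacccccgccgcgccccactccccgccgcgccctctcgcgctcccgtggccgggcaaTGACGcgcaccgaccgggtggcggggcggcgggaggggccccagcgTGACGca
Cebpa, chr7:35119043-35119292, plus strand: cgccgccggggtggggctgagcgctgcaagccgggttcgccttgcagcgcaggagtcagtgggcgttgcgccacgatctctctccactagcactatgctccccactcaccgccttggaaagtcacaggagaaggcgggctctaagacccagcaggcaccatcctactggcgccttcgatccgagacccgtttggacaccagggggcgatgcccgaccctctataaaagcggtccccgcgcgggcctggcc
Tfec, chr6:16898442-16898691, minus strand: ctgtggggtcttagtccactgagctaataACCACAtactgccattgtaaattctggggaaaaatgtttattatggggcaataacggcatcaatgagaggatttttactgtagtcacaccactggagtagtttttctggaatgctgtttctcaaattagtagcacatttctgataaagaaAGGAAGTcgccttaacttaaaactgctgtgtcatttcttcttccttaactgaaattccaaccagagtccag
Irf5, chr6:29526375-29526624, plus strand: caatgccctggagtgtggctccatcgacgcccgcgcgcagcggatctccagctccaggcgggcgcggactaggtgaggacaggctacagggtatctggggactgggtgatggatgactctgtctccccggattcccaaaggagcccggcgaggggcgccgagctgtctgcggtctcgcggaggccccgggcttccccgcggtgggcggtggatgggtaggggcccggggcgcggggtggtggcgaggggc

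The Cebpb window held 3 copies of the CRE core TGACG, with their first bases 180, 53 and 7 bases before the start. Of all 32851 windows, 17.8% held at least 1 copy, and the share with 3 was not computed. The Tfec window held the PU.1 letters AGGAAGT at 71 bases before the start, which 7.69% of all windows held, and the RUNX letters on the reverse strand at 221 bases before it, which 14.0% held. The Cebpa and Irf5 windows held none of the 7 motifs. Among the members whose windows are not shown, those of Mitf held the C/EBP, MAF, RUNX and CRE letters and 1 of Runx1 held the MITF letters. Of all windows, 9.56% held the C/EBP letters, 2.98% those for IRF, 3.81% those for MAF and 6.02% those for MITF. A match is a run of letters and not a measured binding site.

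The 9 factors spanned a wide range of levels. Spi1 led at a mean of 377 FPKM over the 6 libraries, and ranked between 193 and 225 among all genes of a library. It was followed by Cebpb at 209.5, Irf5 at 153, Irf8 at 88.4, Maf at 68.4, Cebpa at 48.0, Runx1 at 20.99, Mitf at 18.4 and Tfec at 5.90 FPKM. Irf5 above Irf8, Cebpa above Runx1 and Mitf above Tfec were the neighbours in this order whose ranges over the 6 libraries lay apart. Spi1 stood above Cebpb in 5 of 6 libraries and Cebpb above Irf5 in only 2 of 6, since Cebpb owed its rank to replicate 3. Irf8 and Maf, Maf and Cebpa, and Runx1 and Mitf overlapped in range, although Irf8 exceeded Maf and Runx1 exceeded Mitf within each of the 6 libraries.

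**Figure D1:**
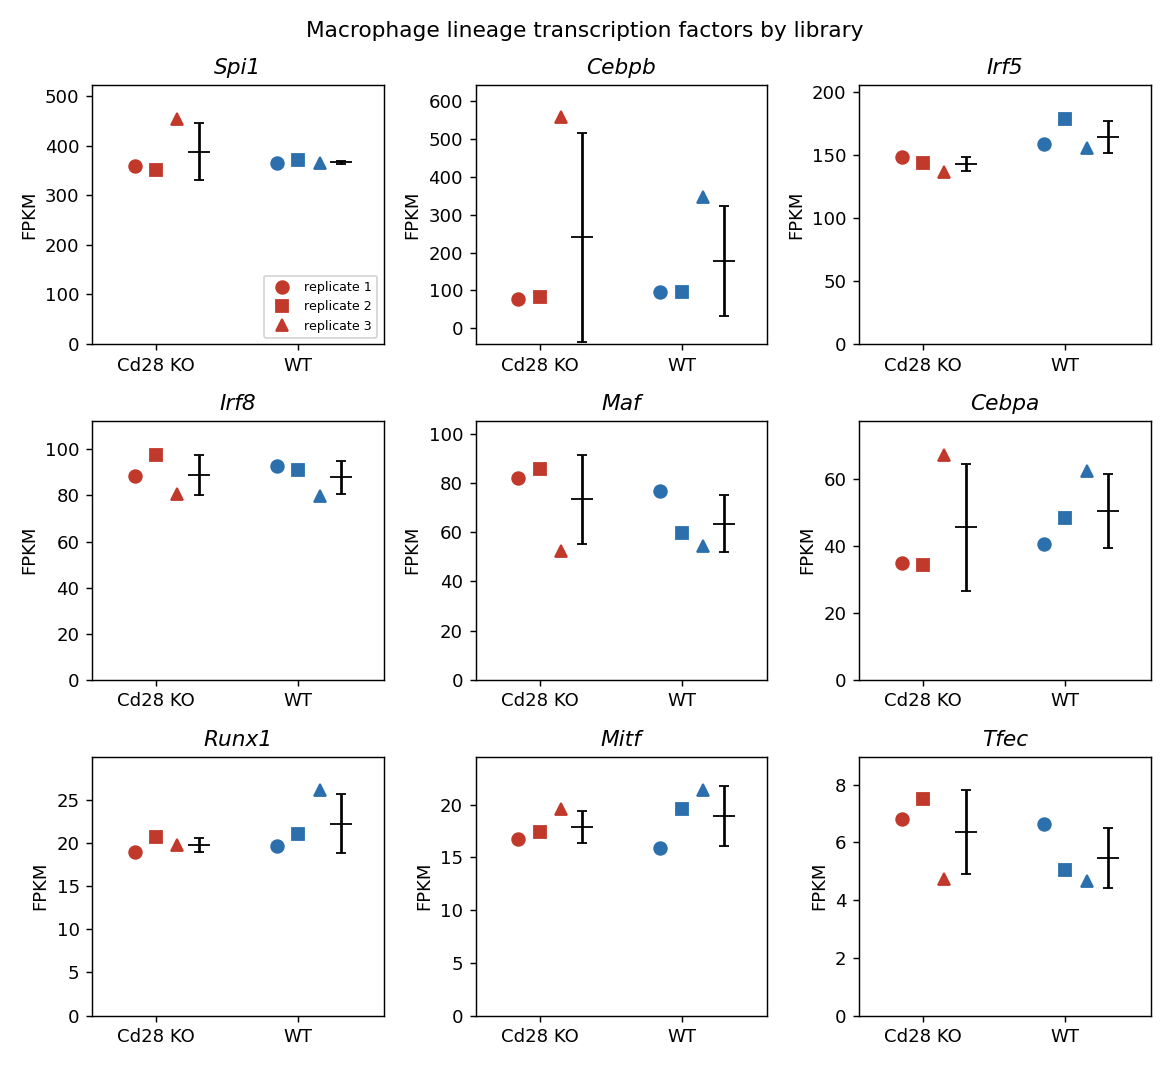
FPKM of each factor in every library, with Cd28 KO in red and WT in blue, the replicate number as the symbol and mean ± SD (n = 3) in black beside the points. Irf5 shows all Cd28 KO points below all WT points, and Cebpb shows the replicate 3 library far above the other 2 in both genotypes.

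No member passed the test between the genotypes. The comparison between the labelled genotypes asked whether these factors differ in macrophages of Cd28 KO mice, using limma on log2(FPKM + 1) over all tested genes, calling genes whose Benjamini-Hochberg adjusted p was below 0.05. Of the 9 members 0 were called, against 2 of 10172 genes in all (0.0197%), and 0 were called with the replicate number as a block, against 18 genes (0.177%). At an unadjusted p below 0.05, limma listed 253 genes without the block and 803 with it, and 0 members in either. Of the 9 differences 5 were positive and 4 negative, with a median log2 of 0.02 beside -0.00 for all tested genes. The median size of a difference was 0.15 on the log2 scale for the members and 0.09 for all genes. In bulk libraries a change in the share of a cell type and a change of RNA per cell cannot be told apart.

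Spi1 (chromosome 2, 91082374 to 91115759, GRCm38), the master factor of the lineage, stood at 359, 350.6 and 454 FPKM in Cd28 KO against 365, 370.4 and 365 in WT. The groups overlapped, and the Cd28 KO library of replicate 3 alone stood above the rest. The log2 difference was 0.07 ± 0.12 (SE), with a 95% interval from -0.21 to 0.35 and a limma adjusted p of 0.9995. It was -0.05 without Cd28 KO replicate 3. Spi1 made up 63.4% to 68.8% of the summed FPKM of 16 ETS family genes in Cd28 KO and 59.8% to 68.2% in WT.

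Runx1 (chromosome 16, 92601466 to 92826074), which acts ahead of Spi1 in blood development, stood at 18.9, 20.6 and 19.7 FPKM in Cd28 KO against 19.6, 20.97 and 26.1 in WT. Each Cd28 KO library lay below the WT library of the same number, but the groups overlapped. Cd28 KO replicate 2 lay above WT replicate 1. The log2 difference was -0.15 ± 0.14 (SE; limma adjusted p = 0.9995) with all libraries and -0.04 in replicates 1 and 2. Irf5 also lay lower in every numbered pair and Tfec higher in every pair, patterns that 1353 (13.3%) and 1527 of all tested genes showed.

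Irf5 (chromosome 6, 29526130 to 29541869), the factor that drives inflammatory cytokine genes, was the 1 member whose groups did not overlap. It stood at 148, 144 and 136 FPKM in Cd28 KO against 159, 179 and 155 in WT. Cd28 KO averaged 143 ± 5.87 FPKM (SD, n = 3), which was 87.0% of the WT average of 164 ± 12.7 FPKM (SD, n = 3). Of all tested genes, 2.87% were lower in Cd28 KO without overlap. The log2 difference was -0.20 ± 0.10 (SE), its 95% interval ran from -0.42 to 0.03, and the limma adjusted p was 0.9995, or 0.67 with the replicate block. It was negative under each of the 15 alternatives, at -0.26 to -0.14, and was called under none. Irf5 shares 411 of its 2905 exonic bases with Tnpo3 on the opposite strand, and no source used here says whether reads were counted by strand. Tnpo3 stood at 18.1, 19.2 and 13.8 FPKM in Cd28 KO against 18.9, 19.4 and 15.6 in WT.

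Irf8 (chromosome 8, 120736358 to 120756694), which steers precursors to the monocyte line, had nearly equal means in the genotypes. It stood at 88.6, 97.7 and 80.5 FPKM in Cd28 KO against 93.0, 90.9 and 79.8 in WT, and the groups overlapped. The log2 difference was 0.02 ± 0.11 (SE) and the 95% interval, -0.25 to 0.28, spans a fold of 0.840 to 1.22. Its sign changed under 4 alternatives. Irf5 exceeded Irf8 by a factor of 1.67, 1.47 and 1.70 in Cd28 KO and 1.71, 1.97 and 1.95 in WT. Every Cd28 KO ratio thus lay below every WT ratio, which was not tested on its own.

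Cebpa (chromosome 7, 35119293 to 35121928), the factor that makes precursors competent for myeloid fate, stood at 34.9, 34.4 and 67.3 FPKM in Cd28 KO against 40.7, 48.2 and 62.5 in WT. In replicates 1 and 2 both Cd28 KO values lay below both WT values, and in replicate 3 the Cd28 KO value was the higher. The log2 difference was -0.20 ± 0.28 (SE; limma adjusted p = 0.9995) with all libraries and -0.35 in replicates 1 and 2, where it was not called either. The ratio of Spi1 to Cebpa, which bears on the choice between macrophage and granulocyte fates, was 10.3, 10.2 and 6.75 in Cd28 KO and 8.98, 7.68 and 5.84 in WT. It was higher in Cd28 KO within each replicate number, while the groups overlapped. Cebpa shares 51 of 2636 exonic bases with an antisense gene, Gm45091.

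Cebpb (chromosome 2, 167688915 to 167690432), the C/EBP factor that responds to inflammatory and cyclic AMP signals, stood at 77.7, 83.3 and 559.7 FPKM in Cd28 KO against 94.9, 94.9 and 347 in WT. Replicates 1 and 2 were lower in Cd28 KO than in WT, and replicate 3 was higher. The log2 difference of 0.07 ± 0.84 (SE; limma adjusted p = 0.9995) had a wide 95% interval, from -1.90 to 2.04. With the replicate block the interval was -0.31 to 0.46. Whether the genotype difference itself differed between replicate 3 and replicates 1 and 2 was tested in a fit with both terms. Replicate 3 has 1 library per genotype. The SE and p of this test thus rest on the spread between replicates 1 and 2, and do not measure that of replicate 3. Cebpb had -0.24 in replicates 1 and 2 and 0.69 in replicate 3, a difference of 0.93 ± 0.15 (SE) at a limma adjusted p of 0.11, so it did not pass. On the TPM scale, FPKM rescaled to the same sum in every library, it did (limma adjusted p = 0.043), where this test called 166 genes in all against 7 on the deposited scale, and over 10 alternatives the limma adjusted p ranged from 0.043 to 0.24. No member passed this test in the main analysis, against 7 genes in all (0.0688%), and at an unadjusted p below 0.05 it listed 1918 genes, 3 of them members (Cebpb, Cebpa and Spi1).

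Maf (chromosome 8, 115703253 to 115706894), which restrains the division of macrophages and supports Il10 and complement genes, stood at 82.0, 85.5 and 52.4 FPKM in Cd28 KO against 76.6, 59.4 and 54.3 in WT. The 2 highest libraries were Cd28 KO replicates 1 and 2, and the lowest was Cd28 KO replicate 3. The log2 difference was 0.19 ± 0.22 (SE; limma adjusted p = 0.9995), at 0.31 in replicates 1 and 2 and -0.05 in replicate 3.

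Mitf (chromosome 6, 97807002 to 98021360) and Tfec (chromosome 6, 16830927 to 16898464) belong to the MiT/TFE family of basic helix-loop-helix factors, Tfec being the member with a narrow expression in macrophages and osteoclasts. Mitf stood at 16.7, 17.4 and 19.6 FPKM in Cd28 KO against 15.9, 19.6 and 21.3 in WT, and the groups overlapped. Tfec stood at 6.82, 7.51 and 4.72 FPKM in Cd28 KO against 6.64, 5.04 and 4.68 in WT, and also overlapped. Their log2 differences were -0.07 ± 0.14 and 0.18 ± 0.20 (SE), each at a limma adjusted p of 0.9995. Mitf supplied 13.7% to 18.5% of the summed FPKM of the 4 family genes in Cd28 KO and 11.6% to 19.9% in WT, and Tfec 4.45% to 5.92% and 3.49% to 4.86%. Most of the family came from Tfe3, at 57.1, 65.6 and 45.2 FPKM in Cd28 KO against 70.3, 73.0 and 46.0 in WT, and Tfeb.

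**Figure D2:**
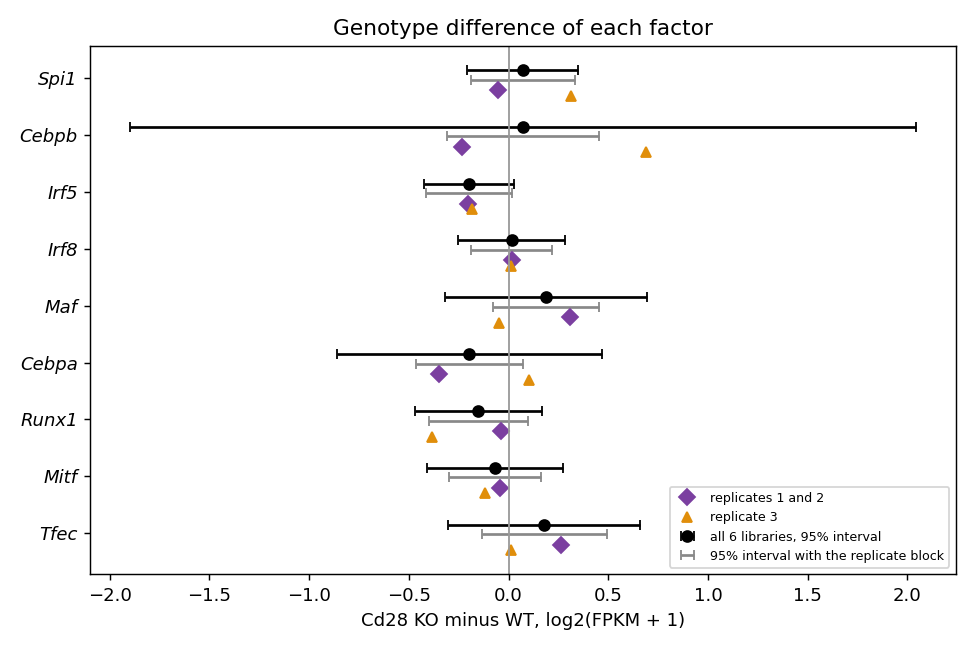
Difference between Cd28 KO and WT for each factor on the log2(FPKM + 1) scale, with the 95% interval of the fit over all 6 libraries in black, that with the replicate block in grey, the mean difference in replicates 1 and 2 as diamonds and that in replicate 3 as triangles. Every interval includes 0, Irf5 comes nearest to excluding it, and Cebpb has its symbols at -0.24 and 0.69.

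The members were then compared by replicate number. limma's moderated F test over the 3 numbers, with genotype in the fit, called 3 of 9 members, Cebpb, Cebpa and Maf, against 2180 of 10172 genes (21.4%), so the share of members was not far from that of all genes. Replicate 3 was higher for Cebpb and Cebpa and lower for Maf, where 7.41% of all tested genes were called higher and 14% lower. The median log2 difference between replicate 3 and the mean of replicates 1 and 2 was -0.10 over all tested genes. The Y-linked genes Eif2s3y, Ddx3y, Kdm5d and Uty stood at 0 in all libraries of replicates 1 and 2 and were listed in both of replicate 3. The comparison of replicate 3 is therefore also one between libraries with and without Y-linked transcripts. A difference by the sex of the cells cannot be separated from it and was not tested.

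Cebpb rose most. Its mean was 453 FPKM in replicate 3 against 87.7 in replicates 1 and 2, a ratio of 5.17, and its log2 difference of 2.32 ± 0.18 (SE; limma adjusted p = 9.2e-05) was the 62nd highest of all tested genes. It was called under all 12 alternatives for this test. Cebpb shares 312 of its 1504 exonic bases with Tmem189, on the opposite strand. Tmem189 stood at 149, 167 and 355 FPKM in Cd28 KO and 155, 169 and 411 in WT, so it too was high in replicate 3, and reads of the pair cannot be told apart where they overlap unless strand was used. Unlike Cebpb, Tmem189 was not higher in Cd28 KO than in WT in replicate 3.

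Cebpa rose to 64.9 FPKM in replicate 3 against 39.5 in replicates 1 and 2, a log2 difference of 0.71 ± 0.13 (SE; limma adjusted p = 0.0092), and lost its call when every listed gene was tested (0.085). Maf fell to 53.4 FPKM in replicate 3 against 75.9, a log2 difference of -0.49 ± 0.13 (SE; limma adjusted p = 0.045). The call of Maf was lost under 7 of 12 alternatives, among them leaving out Cd28 KO replicate 1 (limma adjusted p = 0.063) or WT replicate 1 (0.14), and the difference was -0.35 with median centring, -0.31 without Cd28 KO replicate 3, and -0.66 when that of WT was left out. Among the members that did not pass, both replicate 3 libraries of Irf8 (80.1 against 92.6 FPKM) and Tfec (4.70 against 6.50) lay below the other 4, and both of Mitf (20.5 against 17.4) above them. Over all tested genes 33.7% lay below and 15.3% above in this way. The log2 difference of Tfec was -0.39 with all libraries and ran from -0.51 to -0.25 over the 12 alternatives. It passed under 2 of them, leaving out WT replicate 2 (-0.50) or WT replicate 3 (-0.51). Each of these fits leaves 1 library in a replicate number and called more genes in all than the main fit.

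The shares of Cebpb and Runx1 in their families are given as a description, with no test. Of the 7 C/EBP family genes, Cebpb held 75.9% of the summed FPKM in Cd28 KO replicate 3 and 70.3% in WT replicate 3, against 40.5% to 46.5% in the other 4 libraries. Runx1 held 92.5%, 91.7% and 51.6% of the RUNX sum in Cd28 KO and 91.0%, 92.3% and 49.0% in WT. The change lay in Runx3, a factor known from T cells and dendritic cells, which stood at 0.60, 0.60 and 16.6 FPKM in Cd28 KO and 0.96, 0.65 and 24.4 in WT.

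**Figure D3:**
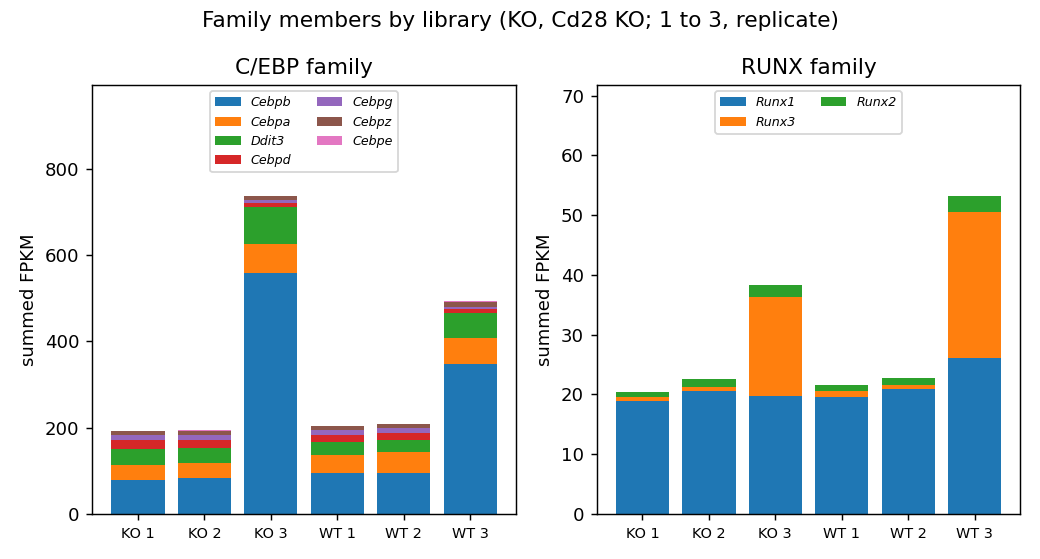
Summed FPKM of the C/EBP and RUNX families in each library, Cd28 KO left of WT, with each gene as a coloured part of the bar. In replicate 3 of both genotypes Cebpb takes 70.3% to 75.9% of its family, and Runx3 is present at 16.6 and 24.4 FPKM.

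Among relatives of the members, 0 were called between genotypes, with or without the block, and 16 were called by replicate number. Of 38 relatives, 31 were tested, 15 with a positive and 16 with a negative genotype difference and a median log2 of -0.00. Irf9, a subunit of the interferon factor ISGF3, was the 1 relative whose Cd28 KO libraries all lay above all WT libraries, a pattern of 3.84% of all tested genes, at 48.2, 51.5 and 50.5 FPKM against 41.8, 45.2 and 47.5 in WT. Irf7, the interferon-induced amplifier of type I interferon, stood at 194, 208 and 258 FPKM in Cd28 KO against 139.7, 126 and 205 in WT (log2 difference 0.51 ± 0.20 SE; limma adjusted p = 0.9995, or 0.19 with the replicate number as a block). It was called in replicates 1 and 2 alone (limma adjusted p = 0.034), where 71 of 10172 genes were. The 16 called by replicate number were 51.6% of the 31, 10 higher in replicate 3 and 6 lower. The share over all tested genes was 21.4%, with 7.41% higher and 14% lower.

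In the ETS family Ets2 (log2 difference 1.31) and Etv3 (0.58) rose in replicate 3 and Ets1, best known from lymphocytes, fell (-0.87), while Fli1 (-0.05) and Elf1 (-0.16), the most abundant after Spi1, were not called. In the IRF family Irf1 (0.78) and Irf7 (0.49) rose and Irf2 (-1.31) and Irf3 (-1.09) fell. Irf1 and Irf2 bind the same sites, as activator and as antagonist. In the C/EBP family Ddit3, the stress-induced partner that blocks DNA binding, rose (1.02), and Cebpd (-0.64) and Cebpg (-1.17) fell. The small MAF proteins Maff (2.99) and Mafk (1.17) rose, while Mafg (-0.16) was not called. Runx3 (3.64) and Runx2 (0.66) rose, and their binding partner Cbfb (0.16) was not called. In the MiT/TFE family Tfe3 fell (-0.53) and Tfeb (-0.19) was not called. These are log2 differences between replicate 3 and the mean of replicates 1 and 2, called by limma's F test. Their directions held under the 3 other scalings tried, while the calls of Runx2, Tfe3 and Irf7 were each lost under 1 of them.

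**Figure D4:**
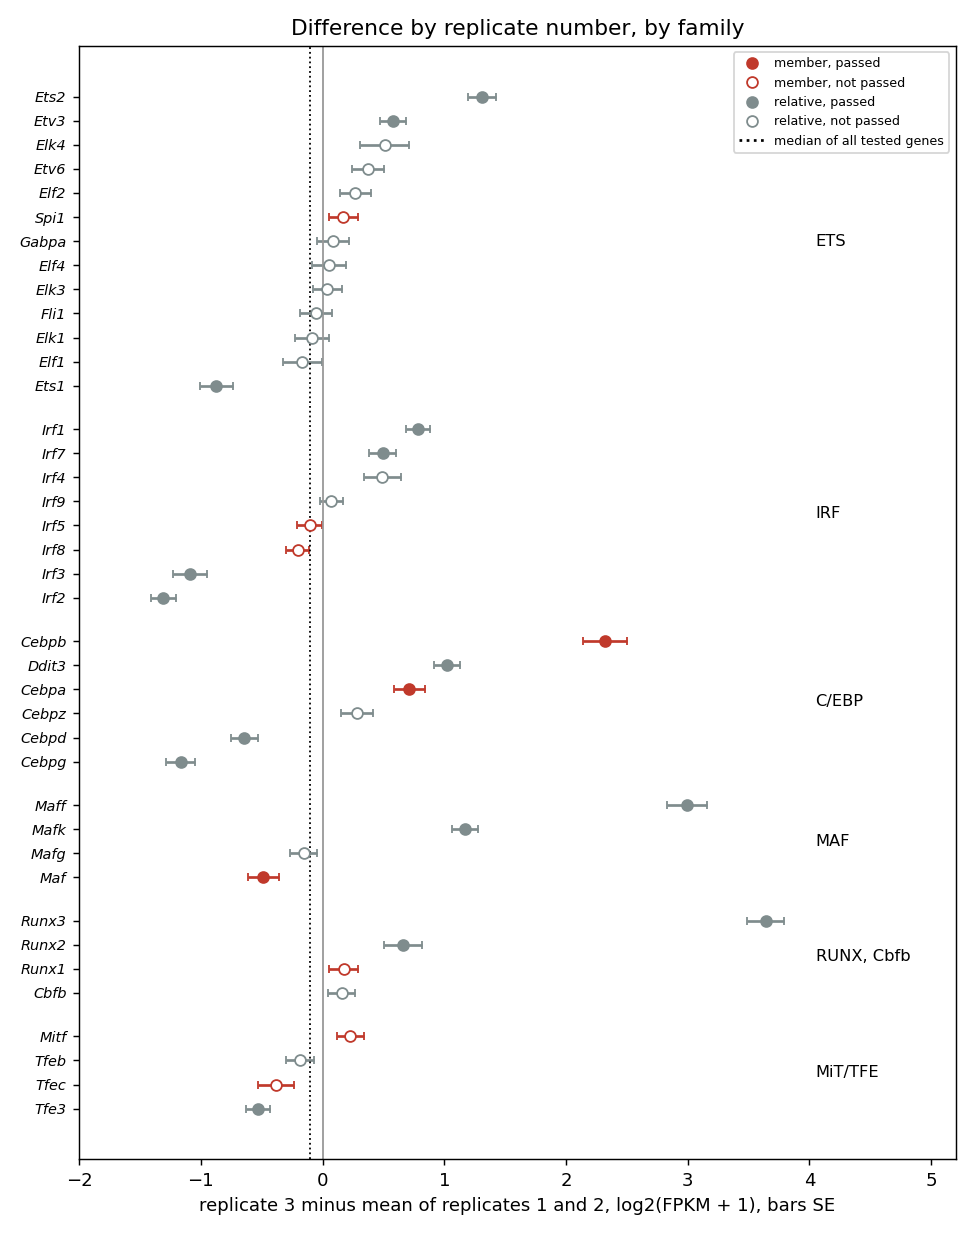
Log2 difference between replicate 3 and the mean of replicates 1 and 2 (bars, SE) for the members in red and tested relatives in grey, grouped by family, with filled symbols for genes called by limma's F test and a dotted line at the median of all tested genes. Within the C/EBP, IRF, MAF and ETS families some genes lie to the right and others to the left of the line at 0, with Cebpb at 2.32 and Runx3 at 3.64.

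Of 24 other transcription factors of macrophages, 23 were tested, 0 were called between genotypes and 11 by replicate number, 10 of them higher in replicate 3. Of all tested genes 21.4% were called by replicate number, 7.41% higher in replicate 3 and 14% lower. The largest difference was that of Id3, an inhibitor of helix-loop-helix factors, at 1.00, 1.28 and 359.9 FPKM in Cd28 KO and 1.27, 1.37 and 273 in WT. Id2, Bhlhe40, Bhlhe41, Klf4, Bach1 and Nr4a1, Egr1, Junb and Fos were the other 9 that rose, and Klf2 fell. Of the 20 factors of other blood lineages, the 3 tested were Tcf4, Batf3 and Foxp3, with 0 called by genotype or by replicate number. Tcf4, a factor of plasmacytoid dendritic cells, stood at 18.7, 18.2 and 16.4 FPKM in Cd28 KO against 19.0, 19.9 and 16.6 in WT. Batf3, a factor of dendritic cells that present antigen to killer T cells, stood at 5.53, 1.12 and 2.26 FPKM in Cd28 KO against 4.81, 5.24 and 3.25 in WT, so Cd28 KO replicate 2 was the lowest. Nr4a1, Egr1, Junb and Fos belong to the immediate early genes, which cells switch on within minutes of a stimulus. Jun (log2 difference 0.15), Atf3 (0.15) and Egr2 (-0.75), of the same kind and on the same list, were not called. The part of these genes in the difference of Cebpb was not tested.

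Textbook targets of the members were set beside them. Of the 16 tested targets of Spi1, 0 were called, 11 were positive and 5 negative, and the median log2 was 0.04. Lyz2 (lysozyme) had a log2 difference of 0.21 ± 0.12 and Ctss (cathepsin S) of -0.11 ± 0.13 (SE). Cst3, the inhibitor cystatin C, is listed among the Irf8 targets and had 0.13 ± 0.12, Cd14, the co-receptor for lipopolysaccharide, 0.02 ± 0.13, and the complement genes C1qb and C1qc, read as targets of Maf, 0.06 ± 0.14 and 0.09 ± 0.11. The 9 targets of Irf8 and Irf5 had a median of -0.03, the 6 of Cebpa and Cebpb -0.03 and the 8 of Maf 0.10, again with 0 called. Of the cytokine genes named as targets of Irf8 and Irf5, Tnf stood at 20.8, 25.4 and 131 FPKM in Cd28 KO against 22.6, 23.4 and 139.0 in WT. Il12b did not exceed 0.49 FPKM, and Il6 and Il23a did not exceed 0.23 FPKM, in any library. Il6 was listed in WT replicate 3 alone.

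Of the 14 tested targets of Mitf and Tfec, 0 were called between genotypes, 12 had a negative and 2 a positive difference, and the median log2 was -0.07, where 50.9% of all tested genes were negative. Several of the 12 lay near 0, such as Lamp1 and Cdk2 at -0.01 each. Gpnmb, a lysosomal glycoprotein, and Ctsb, the protease cathepsin B, were lower in Cd28 KO without overlap, as were 2.87% of all tested genes. Ctsb stood at 2995, 3003 and 3037 FPKM in Cd28 KO against 3272, 3191 and 3187 in WT (log2 difference -0.09 ± 0.09 SE). Ctsd, cathepsin D, had a log2 difference of -0.02 ± 0.10 (SE). Gpnmb stood at 2163, 2332 and 1858 FPKM in Cd28 KO against 2686, 2865 and 2496 in WT (log2 difference -0.34 ± 0.12 SE; limma adjusted p = 0.9995, or 0.63 with the replicate number as a block). Atp6v0d2, a proton pump subunit of osteoclasts, stood at 51.8, 50.9 and 62.5 FPKM in Cd28 KO against 73.8, 97.2 and 61.1 in WT, and was among the 71 genes called in replicates 1 and 2 alone (log2 difference -0.71, limma adjusted p = 0.046). The 8 osteoclast markers, of which 6 were listed and Calcr and Oscar stood at 0, summed to 95.5 to 117.6 FPKM in Cd28 KO against 116.2 to 158.5 in WT. Replicate 3 had 117.6 FPKM in Cd28 KO against 116.2 in WT. Atp6v0d2 was the largest part of this sum, and Ctsk, Acp5 and Oscar also stand on both lists, so the sum is no separate measure.

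By replicate number, 2 of 16 tested targets of Spi1 were called, Btk and Tlr4 (lower in replicate 3). For Irf8 and Irf5 3 of 9 were called, Tnf and Klf4 (higher) and Bcl6 (lower). Il1b (higher) was 1 of 6 for Cebpa and Cebpb, and Il10 (higher) was 1 of 8 for Maf. For Mitf and Tfec 3 of 14 were called, Sqstm1 (higher), Clcn7 and Cdk2 (lower). The share over all tested genes was 21.4%, with 7.41% higher in replicate 3 and 14% lower. Tlr4 lost its call under each of the 3 other scalings and Btk and Clcn7 under 1. Il10 stood at 1.77, 3.54 and 10.1 FPKM in Cd28 KO and 2.10, 1.08 and 9.78 in WT. It was high in the replicate 3 libraries, where Maf was lowest. In WT replicate 2, where Maf was next lowest at 59.4 FPKM, Il10 was at its lowest.

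For the 4 members whose log2(FPKM + 1) spanned at least 0.5 over the 6 libraries, the tested genes with the most similar profile were sought by the root mean square difference (RMS) of centred log2 values. For Cebpb, with an RMS of 1.12 around its own mean, these were Sphk1 (0.09), Gadd45g (0.10) and Dusp2 (0.17). Gadd45g stood at 9.81, 12.02 and 67.3 FPKM in Cd28 KO and 11.6, 12.1 and 47.6 in WT, so it shared with Cebpb the higher value of Cd28 KO in replicate 3. For Cebpa they were Hsp90aa1 (0.06), Jund (0.08) and Utp18 (0.08), for Maf Ccdc93 (0.05), Hacl1 (0.06) and Gon7 (0.06), and for Tfec Mthfsd (0.03), Pcsk1 (0.04) and Rmnd1 (0.05). These likenesses describe 6 libraries, of which replicates 3 set most of the spread.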

How the data were processed

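RNA of bone marrow-derived macrophages was sequenced in 6 libraries, grouped by their titles. The authors deposited FPKM, 1 value per Entrez gene and library, and a gene missing from a file was taken as 0. Per the submitters' processing notes, Bowtie, RSEM and build GRCm38 were used, in versions not given in the sources used here. Ambiguous reads are shared out by RSEM as an estimate. The number of reads is unknown, so no counting interval is given. Symbols came from RefSeq for GRCm38, which 14551 of 14574 genes matched, and exon overlaps from GENCODE on the same build.

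limma 3.58.1 in R 4.3.3 was fitted to log2(FPKM + 1) with empirical Bayes and trend, for genes averaging 1 FPKM or more, two-sided, with Benjamini-Hochberg adjustment over all 10172. Folds on this scale understate changes of low genes. The genotype fits with and without block, the test over replicate numbers and that of the difference by replicate number were tested on simulated data. There the genotype fit without the block and the test of the difference by replicate number missed most changes of 1.5-fold and 2-fold. The main genotype fit did not pair the libraries. The replicate block took the replicate numbers to pair them, which no label states. Deviations from the group means correlated at 0.752, 0.505 and 0.783 for numbers 1, 2 and 3. Cd28 KO replicate 1 correlated with WT replicate 2 at 0.663, and Cd28 KO replicate 2 with WT replicate 1 at 0.535. The correlations thus do not tell numbers 1 and 2 apart, and the pairing of these is an assumption. The replicate 3 libraries stood apart in both genotypes. The members, lists and tests, including the use of replicate 3, were chosen with earlier results of these data known. Named genes are all members, the called and the 2 most abundant genes of each list, the nearest profiles, and some chosen after their values were seen (Tmem189, Tnpo3, Gpnmb, Atp6v0d2, Il6, Il12b, Il23a, Jun, Atf3, Egr2, Lamp1, Kit, the Y-linked genes). Python 3.11.15, pandas 2.3.3, NumPy 2.4.6 and Matplotlib 3.10.9 were also used. Values of some genes that the lists count are not reported here.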

Additional observations from a re-analysis of the deposited data

How the results depend on the processing

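Alternatives were a pseudocount of 0.1, no filter, a minimum mean of 5 FPKM, the TPM scale, median centring, quantile normalization, the replicate block, a batch term for replicate 3, replicates 1 and 2 alone, and leaving out each library. With the replicate block 0 members and 0 list genes were called between genotypes, while the genes called in all were 18 against 2. Among the members and list genes it changed no other call. Members varying by replicate number numbered 1 without a filter (965 of 14574 genes called in all), against 3 (2180 of 10172). Leaving out a library leaves 1 library in a replicate number, so the members called by replicate number in those fits are not counted here. Members whose genotype difference differed by replicate number were 1 on the TPM scale (166 genes in all), against 0 (7 in all). List genes called between genotypes were 2 in replicates 1 and 2 alone (71 genes in all), against 0 (2 in all). Leaving out a library gave 0 members and 0 list genes called between genotypes, and 0 members in the test of the difference by replicate number, which cannot be made without a replicate 3 library.

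Log2 differences between Cd28 KO and WT that changed sign, none of them called, were those of Irf8 on the TPM scale (-0.045) and with quantile normalization (-0.020), and of Spi1 (-0.052) and Cebpb (-0.24) in replicates 1 and 2 alone. Leaving out 1 library gave a range of -0.048 to 0.14 for Spi1, -0.054 to 0.084 for Irf8, -0.86 to 0.69 for Cebpb and -0.18 to 0.020 for Mitf. By replicate number, Irf5 changed sign with median centring (0.031), and leaving out 1 library gave -0.011 to 0.36 for Spi1 and -0.0012 to 0.35 for Runx1. The cause was not tested. FPKM without read numbers limits what can be said of low genes such as Il6.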
